A study of Mus musculus with 75 samples.

Results

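Lcn2, Saa1, Saa2, Saa3, Hp and Lrg1 are 6 mouse genes for lipocalin-2 and acute-phase proteins. They were taken by symbol from 21051 gene symbols that appear in both deposited count tables, and all 6 were present in each. They were chosen by symbol with results of these libraries in view, and so were selected on their measured change after lipopolysaccharide (LPS). That change is described here and is not independent evidence of a response. RNA-seq libraries were made from adult mice that all carry a green fluorescent protein reporter transgene. The study has 75 libraries in 16 groups and 3 experiments. Untreated reporter mice gave 5 libraries each from the colon myenteric and colon submucosal plexus and 6 each from the same plexuses of the small intestine. Reporter mice killed 2 h after an intraperitoneal injection gave 4 myenteric libraries per region after LPS (2 mg/kg, from E. coli O111:B4) and 4 per region after phosphate-buffered saline (PBS). At 24 h the same treatments were given to Gpr37WT and Gpr37-/- mice that carry the same reporter, again with myenteric plexus only. After LPS there were 5 wild-type and 4 knockout colon libraries and 4 wild-type and 5 knockout small intestine libraries. After PBS there were 4 wild-type and 5 knockout colon libraries and 6 wild-type and 4 knockout small intestine libraries. How the cells were isolated is not given in the sources used here. In bulk RNA, fewer cells of a type and less RNA per cell cannot be told apart.

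The acute-phase response is a change in secreted proteins during infection or injury. Interleukin-6 acting through STAT3, and interleukin-1 and TNF acting through NF-kB and C/EBP factors, are its best known inducers in the liver, and many other tissues make a local version. Lipocalin-2 (Lcn2) binds bacterial siderophores and so withholds iron, and serum amyloid A proteins (Saa1, Saa2 and Saa3) are small lipid-binding proteins carried on high-density lipoprotein. Saa3 is the form best known outside the liver. Haptoglobin (Hp) binds free haemoglobin, and leucine-rich alpha-2-glycoprotein (Lrg1) is a secreted modifier of TGF-beta signalling in vessels. Lcn2 and Lrg1 proteins are also stored in neutrophil granules, and gut epithelium can make Lcn2 and serum amyloid A.

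The 3 serum amyloid genes lie together on mouse chromosome 7. In GRCm38, with GENCODE M21 gene models, Saa3 is at chr7:46711998-46715700 on the minus strand (4 exons), Saa1 at chr7:46740497-46742980 on the minus strand (4 exons) and Saa2 at chr7:46751790-46754313 on the plus strand (4 exons). Saa1 and Saa2 point away from each other across 8809 bases. Lcn2 is at chr2:32384633-32388252 (minus strand, 6 exons), Hp at chr8:109575128-109579172 (minus strand, 5 exons) and Lrg1 at chr17:56119678-56122001 (minus strand, 2 exons). Upstream sequence was looked at because these genes were high together at 24 h. RefSeq (GRCm38.p6) gave a window for 5 of the 6 genes, all but Hp. Of those 5, Lcn2, Saa1, Saa2 and Saa3 each held a match to the C/EBP letters TTGCNNAA on either strand within the 250 bases before the start, and Lrg1 held none. The same letters occur in 9.56% of 32851 windows of that length. The 4 sequences below cover bases -250 to -60 of the annotated start, 5′ to 3′ in the direction of each gene, with the match in capitals. They are shown because they let the near-identical Saa1 and Saa2 be read against Saa3 and Lcn2. The windows are chr2:32387799-32387989 for Lcn2, chr7:46743040-46743230 for Saa1, chr7:46751583-46751773 for Saa2 and chr7:46715736-46715926 for Saa3. Part of the Lcn2 window is coding exon in an alternative Lcn2 transcript.
Lcn2: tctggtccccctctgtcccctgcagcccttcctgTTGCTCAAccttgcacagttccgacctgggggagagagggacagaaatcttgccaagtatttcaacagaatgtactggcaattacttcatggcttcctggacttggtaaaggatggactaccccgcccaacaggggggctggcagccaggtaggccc
Saa1: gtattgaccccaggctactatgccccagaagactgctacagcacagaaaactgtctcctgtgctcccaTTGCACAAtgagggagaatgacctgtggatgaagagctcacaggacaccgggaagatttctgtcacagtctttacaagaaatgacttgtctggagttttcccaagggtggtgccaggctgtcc
Saa2: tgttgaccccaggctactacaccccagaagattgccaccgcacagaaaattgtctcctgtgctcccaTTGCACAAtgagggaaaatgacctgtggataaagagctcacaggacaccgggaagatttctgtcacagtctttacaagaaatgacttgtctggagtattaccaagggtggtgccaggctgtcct
Saa3: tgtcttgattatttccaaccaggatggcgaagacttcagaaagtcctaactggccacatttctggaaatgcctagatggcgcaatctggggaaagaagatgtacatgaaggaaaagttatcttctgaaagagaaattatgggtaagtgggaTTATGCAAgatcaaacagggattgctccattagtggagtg

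The match spans bases -216 to -209 in Lcn2, -182 to -175 in Saa1, -183 to -176 in Saa2 and -99 to -92 in Saa3, where it reads on the opposite strand. None of the 5 windows held the STAT letters TTCNNNGAA (present in 7.02% of all windows), the NF-kB consensus (7.25%) or TATAAA on the gene's strand (7.59%). These are descriptions of the letters in a short window. The Saa1 and Saa2 upstream windows were identical at 238 of 249 aligned bases (95.6%). Their transcripts were identical at 572 of 606 aligned bases (94.4%), with a longest shared run of 99 bases, whereas Saa3 was 73.2% identical to Saa1 and 73.9% identical to Saa2. RefSeq lists Saa1 and Saa2 as synonyms of each other. Reads could therefore be divided between Saa1 and Saa2 in ways the deposited counts do not show, and the values of those 2 genes are uncertain one against the other.

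Library totals were 2547296 to 9002546 counts in the untreated experiment, 1990744 to 7883251 at 2 h and 2882539 to 33283346 at 24 h. A gene with 3 counts, the limit that a count of 0 allows, stood at 0.329 to 1.11 CPM (counts scaled to the normalised library total) in the untreated libraries, 0.359 to 1.46 at 2 h and 0.0933 to 1.09 at 24 h. These limits cover counting error only, since the libraries carry no molecular identifiers. Gpr37 had 3 or fewer counts in 17 of 18 knockout libraries and 9 counts in the remaining one. It had 3 or fewer counts in 4 of 19 libraries labelled wild type, among them both libraries of mouse 3 (0 and 2 counts), which is labelled wild type and received LPS. Enteric glia markers were summed over 8 genes. They reached 1032 to 17041 CPM in the 24 h libraries, so the labelled cell type was present in each. The 8 markers summed to 6109 to 13370 CPM in untreated colon myenteric plexus but only 1062 to 5254 in colon submucosal plexus. Libraries are tied to numbered mice only at 24 h, and p-values in the other experiments measure the spread between these libraries, which may be technical. At 24 h, the 37 libraries came from 22 mice, 15 of which gave both regions.

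In the small intestine 24 h after LPS, Lcn2 had a median rank by count of 11 among all genes in wild type and of 23 in knockout. Wild-type LPS libraries had 7677, 2245, 7078 and 8441 CPM, and the 6 wild-type PBS libraries ran from 0.721 to 23.8 with a median of 12.8. Knockout LPS libraries had 425, 7866, 2678, 2044 and 5439 CPM, and knockout PBS libraries had 138, 28.5, 9.12 and 1.72. In both genotypes every LPS library lay above every PBS library. The lowest knockout LPS value, in mouse 11, was nearer to the highest PBS value than to any other LPS value. Lcn2 rose by 9.00 ± 1.12 on the log2 scale (SE) in wild type (adjusted p = 2.51e-06) and by 6.38 ± 1.19 in knockout (adjusted p = 0.00389) (edgeR, quasi-likelihood, with p-values adjusted by Benjamini-Hochberg across 14903 genes). The knockout call was lost when only the 2 groups compared were fitted (adjusted p = 0.0992). Adjusted p-values below come from the same test, over 14903 genes at 24 h, 13107 at 2 h and 14090 in the untreated experiment.

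In the colon, Lcn2 already had a level after PBS. Wild-type PBS libraries had 1172, 81.5, 218 and 230.1 CPM, and wild-type LPS libraries had 12823, 6808, 3822, 4969 and 2880. Knockout PBS libraries had 124, 120.5, 5.22, 60.1 and 49.4 CPM, and knockout LPS libraries had 1074, 6750, 5003 and 5149. The groups did not overlap in either genotype, although the PBS library of mouse 14 (1172) was above the LPS library of knockout mouse 11 (1074). Lcn2 rose by 3.88 ± 1.05 on the log2 scale in wild type (adjusted p = 0.0199) and by 5.97 ± 1.07 in knockout (adjusted p = 0.0042). The wild-type call was lost in 3 of 9 fits that each left out 1 library (adjusted p up to 0.0751). The knockout call was lost when only the 2 groups compared were fitted (adjusted p = 0.0579). Mice numbered 10 and below gave 3 of the 5 wild-type LPS colon libraries (Lcn2 2880 to 4969) and none of the PBS ones, and mitochondrial genes took a median of 15.4% of counts in libraries of such mice and 4.57% in the others. With mice numbered 11 and above only, Lcn2 rose in wild-type colon by 4.55 (adjusted p = 0.00702).

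**Figure D1:**
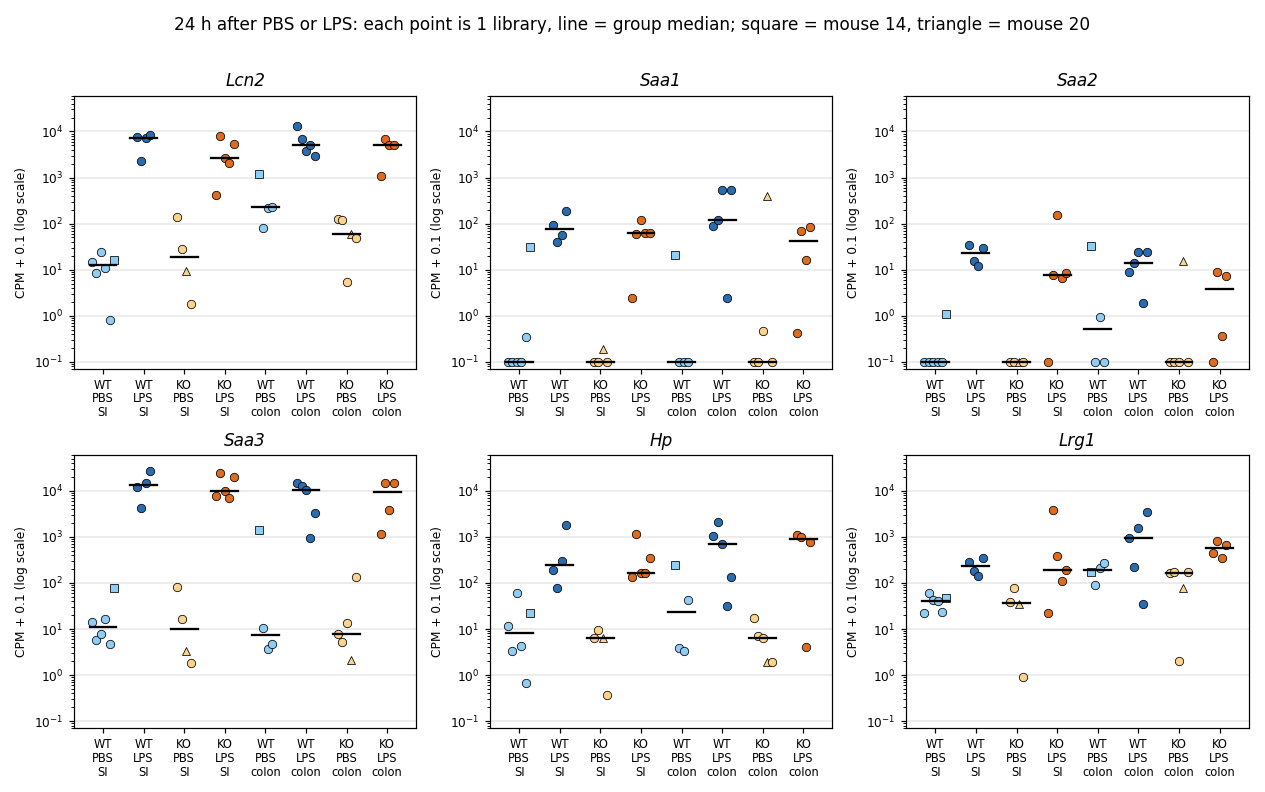
Points show the level of each of the 6 genes in each 24 h library, in CPM on a log scale, by region, genotype and treatment, with a bar at the group median. Small intestine Lcn2 and Saa3 after LPS lie above all PBS libraries of the same genotype, and the wild-type PBS colon library of mouse 14 (1172 CPM for Lcn2) stands above the other PBS libraries for Lcn2, Saa2, Saa3 and Hp.

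Saa3 had the highest mean level per kilobase of the 6 genes in each of the 4 LPS groups at 24 h, with overlap between libraries. Wild-type small intestine LPS libraries had 11903, 4311, 14531 and 26644 CPM of Saa3, and the PBS libraries ran from 4.65 to 77.1 with a median of 11.0. Knockout small intestine LPS libraries had 7611, 24264, 9960, 7114 and 20040 CPM against 82.0, 16.3, 3.24 and 1.72 after PBS. The groups did not overlap in either genotype, and the lowest LPS value, 4311, was far above the highest PBS value, 82.0. Saa3 rose by 9.41 ± 1.61 in wild type (adjusted p = 0.00022) and by 9.06 ± 1.91 in knockout (log2 scale, adjusted p = 0.0122). The knockout call was lost in 3 of 9 fits that each left out 1 library (adjusted p up to 0.0662) and with mice numbered 11 and above only (9.07, adjusted p = 0.061). By raw count Saa3 was the single most abundant gene in at least 1 LPS small intestine library of each genotype. Its median rank among all genes there was 5 in wild type and 6 in knockout, and it took up to 2.87% of all counts of a library.

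Colon Saa3 differed more between animals. Wild-type LPS libraries had 14658, 12506, 10590, 925 and 3269 CPM, and PBS libraries had 1438, 10.3, 3.65 and 4.53. The PBS value of 1438 belongs to mouse 14 and lies above the LPS value of mouse 5 (925), so the groups overlap. The log2 difference of 4.53 ± 1.54 did not pass (adjusted p = 0.061). Without the colon library of mouse 14, the difference was 10.46 and passed (adjusted p = 0.00105). In knockout colon, LPS libraries had 1185, 15093, 3834 and 14744 CPM and PBS libraries 7.53, 5.26, 13.5, 2.05 and 133. These groups did not overlap, and Saa3 rose by 8.09 ± 1.66 (adjusted p = 0.0117, and 0.114 when only the 2 groups were fitted).

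Saa1 and Saa2, the forms best known from liver and gut epithelium, were well below Saa3 per kilobase after LPS. After LPS, wild-type small intestine libraries had 93.6, 39.1, 56.0 and 183 CPM of Saa1, and knockout libraries had 2.38, 58.4, 120, 62.6 and 61.7. After PBS, Saa1 was at 0 in 4 of 6 wild-type libraries, at 0.24 in another and at 31.3 in mouse 14. In the knockout PBS libraries 1 had 3 counts and the other 3 had none. The small intestine groups did not overlap in either genotype, yet Saa1 did not pass in wild type (difference 4.12 ± 1.87 on the log2 scale, adjusted p = 0.189) or in knockout (adjusted p = 0.133, but 0.0304 with only the 2 groups fitted). Without the library of mouse 14, the wild-type test passed (adjusted p = 0.0123). In the colon, Saa1 after LPS ran from 2.27 to 538 CPM in wild type and from 0.322 to 83.0 in knockout, and the knockout PBS library of mouse 20 had 406 CPM while the other 4 had at most 0.364. The wild-type colon difference of 5.64 ± 2.34 did not pass (adjusted p = 0.123). It passed without the library of mouse 14 (adjusted p = 0.0393), when all other wild-type PBS colon libraries were at 0.

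Saa2 in the wild-type small intestine had 33.9, 15.3, 11.6 and 30.2 CPM after LPS and was at 0 after PBS except in mouse 14 (0.982). The groups did not overlap, and Saa2 rose by 6.90 ± 2.05 (log2 scale, adjusted p = 0.0365). That call was lost in 8 of 10 fits that each left out 1 library and with mice numbered 11 and above only (adjusted p = 0.0842), and also without mouse 3, whose Gpr37 counts go against its label (6.66, adjusted p = 0.0693). Knockout small intestine LPS libraries had 0, 7.60, 157, 6.42 and 8.22 CPM, and all 4 PBS libraries had no count. The LPS values rest on mouse 10 (157) for their mean, mouse 11 had no count after LPS, and the test did not pass (adjusted p = 0.0795). In the colon, Saa2 ran from 1.82 to 24.3 CPM in wild-type and from 0 to 8.71 in knockout LPS libraries, and the PBS library of mouse 14 had 32.7. Among 16 LPS libraries at 24 h with at least 20 reads over Saa1 and Saa2, Saa2 took a median of 10.7% of those reads (range 0 to 56.8%). The 4 PBS libraries at 24 h with that many reads had a median of 32.4% (range 3.05 to 100%), and the 6 untreated ones 5.23% (range 2.78 to 10.7%). These ranges overlap, and the shares were not tested.

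Hp, which clears haemoglobin, was present at modest levels after PBS. Wild-type small intestine LPS libraries had 193, 77.4, 293 and 1824 CPM, and PBS libraries ran from 0.561 to 60.3 with a median of 7.96. Knockout small intestine LPS libraries had 137, 1158, 161, 164 and 354 CPM, and PBS libraries had 6.14, 9.48, 6.35 and 0.265. Neither pair of groups overlapped. Hp rose by 5.14 ± 1.31 in wild-type small intestine (adjusted p = 0.0128), and this call rested on mouse 13, without which it was 3.51 (adjusted p = 0.0807). The knockout difference of 6.14 ± 1.61 did not pass (adjusted p = 0.0651). Hp passed there with the mouse number division as a covariate (6.90, adjusted p = 0.00902) and with sex as one (6.05, adjusted p = 0.0474). Without mouse 11, the lowest library for Lcn2, knockout small intestine Hp also passed (adjusted p = 0.0321), as did Saa2 (0.0317) and Lrg1 (0.0247).

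Colon Hp had values of 1067, 2079, 704, 32.1 and 134 CPM in wild-type LPS libraries and 248, 3.86, 3.30 and 41.8 in PBS libraries. In knockout colon the LPS libraries had 1083, 1001, 4.02 and 759 CPM, and PBS libraries had 17.4, 6.87, 6.43, 1.84 and 1.80. Both pairs overlapped: in wild type the PBS library of mouse 14 lay above the LPS libraries of mice 5 and 8, and in knockout the LPS library of mouse 2 lay among the PBS values. Hp rose in knockout colon by 6.72 ± 1.52 (adjusted p = 0.0219), a call lost in 4 of 9 fits that left out a library and when only the 2 groups were fitted (adjusted p = 0.114). The wild-type colon difference of 3.44 did not pass (SE 1.40, adjusted p = 0.117), and without the library of mouse 14 it was 5.67 and passed (adjusted p = 0.047). It also passed with the mouse number division as a covariate (4.57, adjusted p = 0.0322) and with mice numbered 11 and above only (4.43, adjusted p = 0.0342).

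Lrg1, the vessel and neutrophil protein, had a level after PBS in both regions. Wild-type small intestine PBS libraries ran from 22.3 to 61.3 CPM with a median of 41.3, and LPS libraries had 278, 183, 140 and 342. Knockout small intestine PBS libraries had 39.0, 78.4, 34.9 and 0.794 CPM, and LPS libraries had 22.5, 3811, 382, 112 and 195. The wild-type groups did not overlap and the knockout groups did, through mouse 11. Neither difference passed by edgeR (2.58 ± 1.00, adjusted p = 0.116, and 4.56 ± 1.24, adjusted p = 0.0779, on the log2 scale). The wild-type difference passed with only the 2 groups fitted (2.65, adjusted p = 0.000446), and both passed with DESeq2 (adjusted p = 0.0437 and 0.000263). The knockout difference was 2.25 without mouse 17 (edgeR adjusted p = 0.404). In wild-type colon, LPS libraries had 949, 222, 1528, 34.6 and 3422 CPM against 170, 91.6, 212 and 270 after PBS. In knockout colon, LPS libraries had 454, 814, 346 and 683 CPM against 165, 175, 1.94, 78.0 and 169 after PBS. The wild-type colon groups overlapped and the knockout groups did not, and again neither passed by edgeR (2.73 ± 1.13, adjusted p = 0.123, and 2.29 ± 1.05, adjusted p = 0.364).

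**Figure D2:**
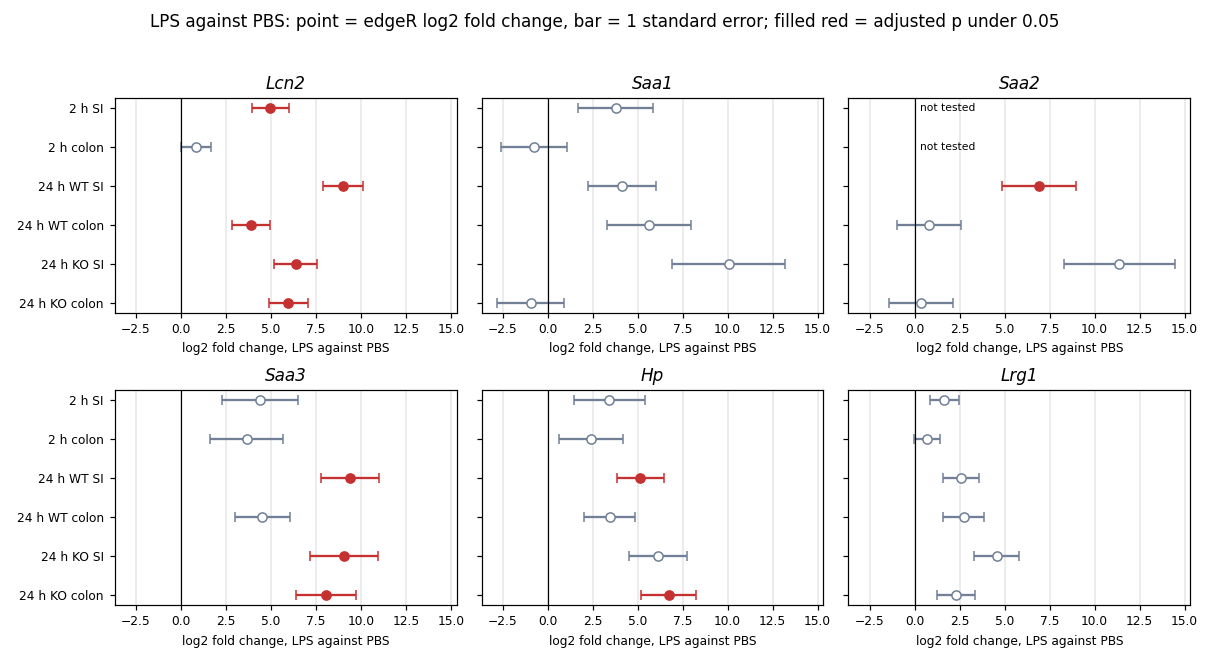
Points show the log2 difference between LPS and PBS for each gene and comparison from edgeR, with bars of 1 standard error, and filled points mark an adjusted p under the threshold of 0.05. Lcn2 is filled in all 4 comparisons at 24 h (9.00, 3.88, 6.38 and 5.97) and, of the comparisons at 2 h, in the small intestine (4.97).

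Over the 6 genes at 24 h, 4 passed in wild-type small intestine (Lcn2, Saa2, Saa3 and Hp), where 7.17% of all genes tested passed. In wild-type colon 1 passed (Lcn2), where 7.96% of all genes did, and DESeq2 called 4 (Lcn2, Saa3, Hp and Lrg1). In knockout small intestine 2 passed (Lcn2 and Saa3), where 0.718% of all genes did, and DESeq2 called all 6. In knockout colon 3 passed (Lcn2, Saa3 and Hp), where 0.718% did. Since the genes were chosen with these contrasts known, nothing is read from the counts. A longer transcript gives more reads, so levels between genes were compared per kilobase. On that scale the mean small intestine LPS level in wild type was 25851 CPM per kilobase for Saa3, 6951 for Lcn2, 444 for Hp, 168 for Lrg1, 153 for Saa1 and 37.5 for Saa2. In wild-type LPS colon the order was Saa3 (15116), Lcn2 (6842), Lrg1 (874), Hp (597), Saa1 (418) and Saa2 (23.9). These are orders of means, and neighbours overlap between libraries: Saa3 ran from 1667 to 26411 and Lcn2 from 3148 to 14014 in wild-type LPS colon, and from 7767 to 48008 and 2453 to 9225 in small intestine. The small intestine Hp mean rests on mouse 13 and the colon Lrg1 mean on mouse 8 (3422 CPM), so the places of Hp and Lrg1 are not settled.

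Neutrophil markers moved with LPS at 24 h, and they are given here because neutrophils carry lipocalin-2 and Lrg1. Of 10 markers tested, 5 rose in wild-type small intestine, 2 in wild-type colon, 1 in knockout small intestine and 2 in knockout colon, with S100a8 (a calcium-binding granulocyte protein) called in 3 of these 4 comparisons. The shares of all genes called, either way, were 7.17%, 7.96%, 0.718% and 0.718% in that order, so counts of calls for this and the lists below are not set between genotypes. The sum over 11 markers ran from 21.8 to 898 CPM in wild-type and 15.5 to 1920 in knockout small intestine LPS libraries, against medians of 13.8 and 4.53 after PBS. In both genotypes the lowest LPS sum lay close to the highest PBS sum, and the wild-type ranges overlapped. In colon it ran from 13.4 to 2353 and from 6.93 to 516 after LPS, against 1.06 to 153 and 0.243 to 60.2 after PBS. Cxcr2 was at 0 in all libraries of the 4 PBS groups and of the wild-type LPS colon. In each LPS group, the library with the lowest neutrophil sum was read for Lcn2 and Saa3. It was mouse 16 in wild-type small intestine (sum 21.8 CPM, Lcn2 7078, Saa3 14531) and mouse 21 in knockout small intestine (15.5, 5439 and 20040). In colon it was mouse 5 in wild type (13.4, 4969 and 925) and mouse 11 in knockout (6.93, 1074 and 1185), which had the lowest Saa3 of their groups. The 2 highest Lrg1 values came from libraries with high sums: 3422 CPM in the wild-type colon of mouse 8 (sum 1969) and 3811 in the knockout small intestine of mouse 17 (sum 1920). The part of neutrophils in the levels of the 6 genes was not tested.

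Epithelial markers (7 genes) were high in the libraries with the most Saa1 in wild-type LPS colon and knockout PBS colon at 24 h. In wild-type LPS colon the sum was 6390 CPM in mouse 3 and 10225 in mouse 8, with Saa1 at 523 and 538, while the other 3 libraries had sums of 8.63 to 16.4 and Saa1 of 2.27 to 122. In knockout PBS colon, mouse 20 had a sum of 8594 and Saa1 of 406, and no other library of that group had a sum over 548. Epithelial marker RNA was high where Saa1 was highest in colon, and its part in the Saa1 level was not tested. Hepatocyte markers (6 genes) summed to at most 67.1 CPM in the LPS libraries, and Serpina1a, an abundant liver protease inhibitor, was at 0 in all 4 LPS groups.

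**Figure D3:**
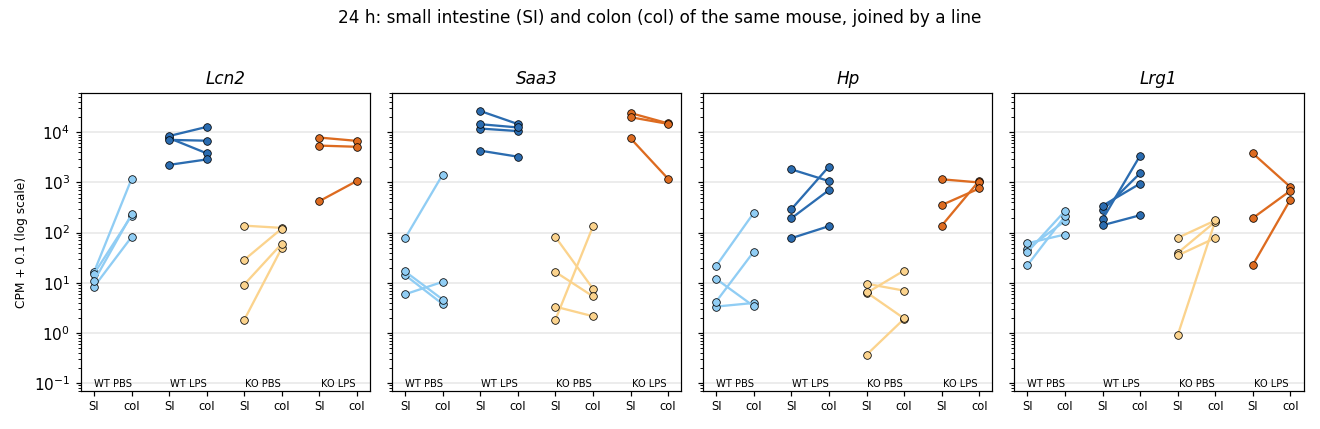
Lines join the colon and small intestine libraries of 1 mouse at 24 h, for Lcn2, Saa3, Hp and Lrg1. Levels are in CPM on a log scale, for the 15 mice with both regions, by genotype and treatment. Lcn2 slopes down from colon to small intestine in 4 of 4 wild-type PBS mice, and Saa3 is higher in the small intestine in 7 of 7 LPS mice.

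The region of the gut was compared next, since 15 mice gave both. After PBS, Lcn2 in wild type was higher in the colon than in the small intestine of the same animal in 4 of 4 mice, and all 4 colon libraries lay above all 6 small intestine libraries. The log2 difference was 5.10 ± 0.96 (adjusted p = 0.0106) in a comparison where 0.141% of all genes passed, and Lcn2 was 1 of 6 genes to do so. With the mouse as a block it was 4.42 (adjusted p = 0.0277). Without the colon library of mouse 14 it was 3.82 and did not pass (adjusted p = 0.109). In knockout mice after PBS, Lcn2 was higher in colon in 3 of 4 animals and none of the 6 genes passed by edgeR (2 at an unadjusted p under 0.05, and Saa1 and Saa2 by DESeq2), where 0.0805% of all genes passed. High Saa1 and Saa2 in that colon group came from mouse 20 (406 and 15.4 CPM), and the other 4 libraries had at most 0.364 and 0.

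After LPS, Lcn2 was higher in the colon in 2 of 4 wild-type and 1 of 3 knockout mice. The region by LPS interaction for Lcn2 in wild type was -5.12 ± 1.28 (log2 scale, edgeR adjusted p = 0.378), and 0% of all genes passed. DESeq2 called it (-5.10, adjusted p = 0.00348). Saa3 was higher in the small intestine in 4 of 4 wild-type and 3 of 3 knockout mice after LPS, and Lrg1 higher in the colon in 4 of 4 wild-type mice after PBS, 4 of 4 knockout mice after PBS, 4 of 4 wild-type mice after LPS and 2 of 3 knockout mice after LPS. Between regions after LPS, none of the 6 genes passed by edgeR or DESeq2 in either genotype. By edgeR 1 was at an unadjusted p under 0.05 in wild type and 0 in knockout, where 0.262% and 0.0738% of all genes passed.

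Gpr37 is an orphan receptor that glia express, and its loss was compared within each region and treatment. Between genotypes after LPS, 0 of 6 passed in either region by edgeR or DESeq2, and 0 had an unadjusted p under 0.05, where 0.0134% (small intestine) and 0.429% (colon) of all genes passed. The Lcn2 difference of knockout minus wild type was -0.79 ± 0.90 in the small intestine (adjusted p = 0.925) and -0.48 ± 0.91 in the colon (adjusted p = 0.836). The lowest Lcn2 after LPS in either region was in knockout mouse 11, with 425 and 1074 CPM. After PBS it was 1.83 ± 0.87 for small intestine and -2.57 ± 0.93 for colon, both with an edgeR adjusted p of 1. The first was 0.06 without knockout mouse 12, and the second -1.30 without the colon of mouse 14. There, edgeR called 0 of 6 in each region, with 2 and 3 genes at an unadjusted p under 0.05 in the small intestine and colon, and DESeq2 called 1 (Saa2) and 0. No gene of the table passed in either (0%). For the genotype by LPS interaction, edgeR called 0 of 6 in each region, and 1 gene had an unadjusted p under 0.05 in each. DESeq2 called 1 (Saa2, small intestine) and 0, and 0% of all genes passed by edgeR. Both Saa2 calls, here and between genotypes after PBS, use the knockout PBS small intestine, where all 4 libraries had no Saa2 count. After PBS, 5 of 6 wild-type small intestine libraries were also at 0. Against the knockout PBS group DESeq2 gave a log2 difference of 26.35 for LPS, so no size can be read from these calls. The Lcn2 interaction was -2.62 ± 1.25 in the small intestine (adjusted p = 1) and 2.09 ± 1.27 in the colon (adjusted p = 0.491). These were -0.85 without the small intestine of mouse 12 and 0.80 without the colon of mouse 14.

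At 2 h after LPS, Lcn2 was the gene of the 6 that passed, in the small intestine. In the small intestine, LPS libraries had 18.4, 20.7, 77.5 and 41.6 CPM, and PBS libraries had 3.75, 0, 0.803 and 0.24. The groups did not overlap, and Lcn2 rose by 4.97 ± 1.03 (adjusted p = 0.0191). It was 1 of 5 tested genes, where 1.10% of all genes passed, and Saa2 was too low to be tested. The call was lost in 4 of 8 fits that left out a library and when only the groups compared were fitted (adjusted p = 0.0565). In the colon, Lcn2 had 41.5, 254, 152 and 162 CPM after LPS and 191, 11.9, 106 and 29.2 after PBS, so the groups overlapped (difference 0.85 ± 0.82, adjusted p = 1). The region by LPS interaction for Lcn2 was -4.12 ± 1.27 (edgeR adjusted p = 1), and 0% of all genes passed.

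Saa3 at 2 h had 2.05, 0, 23.5 and 10.3 CPM in the small intestine after LPS and 0, 0, 1.41 and 0.12 after PBS, which overlap (4.41 ± 2.13, adjusted p = 0.989). In the colon it had 14.1, 0, 23.0 and 12.5 CPM after LPS and 3.73, 0, 0 and 0 after PBS. Colon Hp had 21.8, 48.1, 26.3 and 31.1 CPM after LPS and 0, 0, 7.00 and 17.2 after PBS. These Hp groups did not overlap, but the difference of 2.38 ± 1.77 did not pass (adjusted p = 0.955). Lrg1 in the small intestine had 10.4, 4.82, 35.5 and 19.2 CPM after LPS and 2.87, 7.31, 9.23 and 3.11 after PBS, and it did not pass (1.65 ± 0.78, adjusted p = 0.961). Saa1 stood at 17.7 CPM in 1 LPS small intestine library and at no more than 0.975 in the other 7 small intestine libraries. In the colon 0 of 5 tested genes passed by edgeR or DESeq2, and 0 had an unadjusted p under 0.05, where 0.778% of all genes passed. Neutrophil marker sums at 2 h ran from 1.38 to 7.67 CPM (PBS) and 0 to 8.47 (LPS) in the colon. In the small intestine they ran from 9.06 to 20.9 (PBS) and 8.64 to 159 (LPS). In either region edgeR called 0 of 3 tested markers, with 1 at an unadjusted p under 0.05 in each. There, 0.778% (colon) and 1.10% (small intestine) of all genes passed. The highest small intestine sum was in the LPS group, and its part in the Lcn2 level was not tested.

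**Figure D4:**
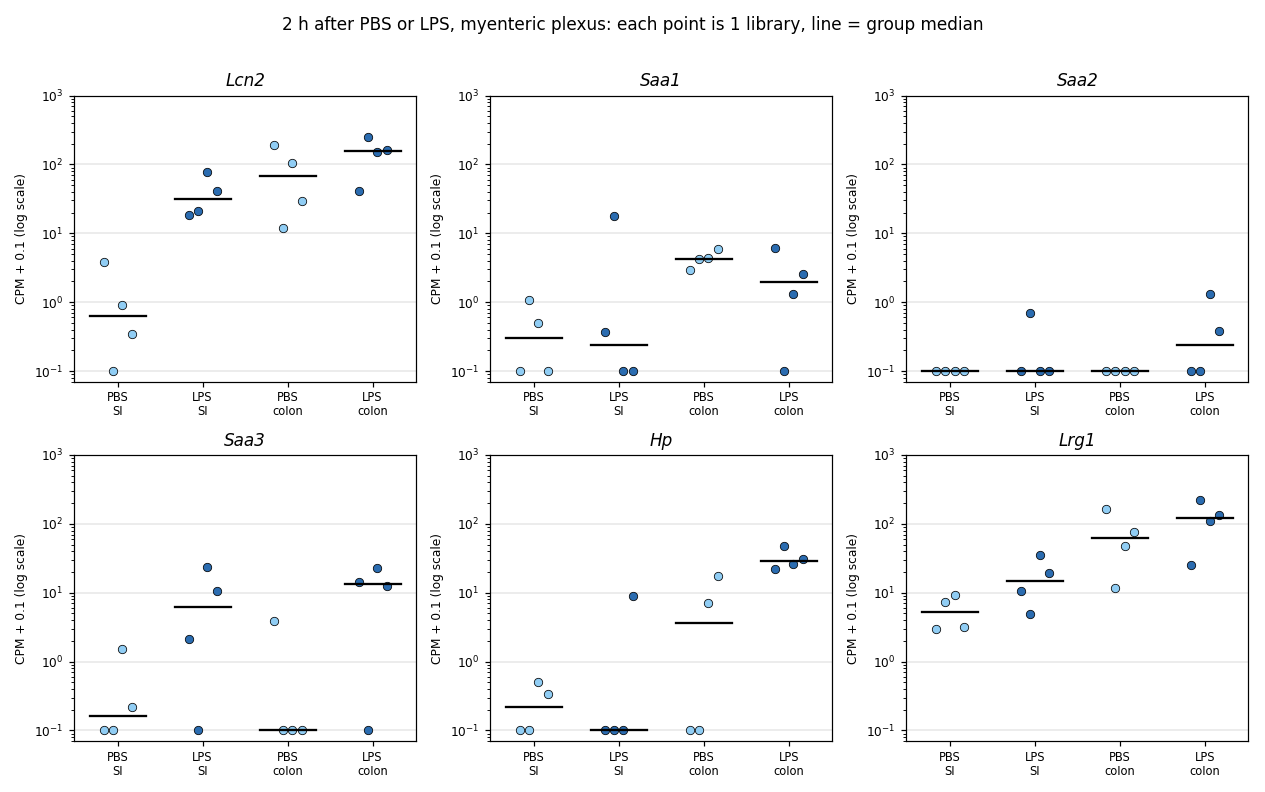
Points show the level of each of the 6 genes in each library killed 2 h after injection, in CPM, by region and treatment. Small intestine Lcn2 separates, with LPS values of 18.4 to 77.5 and PBS values of 0 to 3.75, while colon Lcn2 overlaps.

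The genes that act upstream of these proteins were described from lists of the pathway, chosen for their roles. Of the inducing cytokines, 3 of 6 tested passed at 2 h in each region, all higher: Il6, Il1a and Il1b. In these comparisons 1.10% (small intestine) and 0.778% (colon) of all genes passed. Il6 averaged 160.1 ± 45.0 CPM (SD, n = 4) after LPS and 1.30 ± 1.65 after PBS in the small intestine, and 346 ± 56.6 and 0.255 ± 0.51 in the colon. At 24 h, edgeR called 0 of 8 cytokines in each of the 4 comparisons, with 1 at an unadjusted p under 0.05 in each. Of all genes, 7.17% were called in wild-type small intestine, 7.96% in wild-type colon and 0.718% in each knockout region.

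Of 13 transcription factors and feedback inhibitors, 10 rose at 2 h in small intestine libraries and 8 in colon libraries. The shares of all genes called there were 1.10% and 0.778%. Bcl3, an NF-kB cofactor, rose by 4.38 ± 0.75 and 4.68 ± 0.77 on the log2 scale, and Cebpd, a C/EBP factor of acute-phase genes, by 2.70 ± 0.30 and 2.59 ± 0.30. Nfkbiz, the NF-kB cofactor best known for Lcn2 expression, averaged 564 ± 62.9 CPM after LPS and 42.9 ± 17.4 after PBS in the small intestine at 2 h (3.72 ± 0.56, adjusted p = 0.00115). At 24 h, 7 of 13 rose in wild-type small intestine, 8 in wild-type colon, 0 in knockout small intestine (5 at an unadjusted p under 0.05) and 2 in knockout colon (Cebpd 1.61 ± 0.31 and Stat3 0.86 ± 0.20), where 7.17%, 7.96%, 0.718% and 0.718% of all genes were called. For the genotype by LPS interaction, edgeR called 0 of the 13 in either region, where 0% of all genes passed. Of the 13, 4 (small intestine) and 2 (colon) had an unadjusted p under 0.05.

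Among 18 other acute-phase genes tested at 24 h, 4 rose in wild-type small intestine, 4 in wild-type colon, 2 in knockout small intestine and 3 in knockout colon, beside 7.17%, 7.96%, 0.718% and 0.718% of all genes. Serpina3n, a secreted protease inhibitor, and Cp, the copper protein ceruloplasmin, rose in all 4. In wild-type small intestine Serpina3n averaged 1231 ± 385 CPM after LPS and 36.2 ± 23.1 after PBS, and Cp rose there by 4.36 ± 0.48. Cfb, complement factor B, rose in the colon of both genotypes (4.00 ± 0.91 and 3.82 ± 0.84). At 2 h, 1 of 8 tested passed in the small intestine (Il1rn, the interleukin-1 receptor antagonist) and 0 in the colon, where 3 had an unadjusted p under 0.05. The shares of all genes called at 2 h were 1.10% (small intestine) and 0.778% (colon).

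Of 11 cytokine receptors, Il17ra (an interleukin-17 receptor chain) and Tnfrsf1a (TNF receptor) rose in wild-type small intestine at 24 h, where 7.17% of all genes were called. Il17ra rose and Il11ra1 fell in wild-type colon, where 7.96% of all genes were called. In either knockout region edgeR called 0 of 11, with 2 at an unadjusted p under 0.05 in each, where 0.718% of all genes were called. Of 14 receptors and partners of the 6 proteins, Fpr2, a formyl peptide receptor that binds serum amyloid A, rose in all 4 comparisons (7.91 ± 1.26, 4.93 ± 1.27, 6.97 and 8.63 ± 1.70 in the order above). Tlr2 rose in both wild-type regions at 24 h and in both regions at 2 h. In colon at 24 h, Fpr2 stayed low, at 16.5 ± 14.2 CPM after LPS in wild type and 5.38 ± 3.45 in knockout.

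In untreated mice, Lcn2 differed between the colon plexuses, and Saa1 differed between the colon plexuses and between the regions of the submucosal plexus. Lcn2 in colon myenteric plexus had 305, 194, 84.6, 68.6 and 58.3 CPM, and in colon submucosal plexus 8.51, 19.6, 6.08, 16.0 and 16.6. Every myenteric library lay above every submucosal library. The difference of submucosal minus myenteric was -3.40 ± 1.11 (adjusted p = 0.0324) in a comparison where 21.8% of all genes passed. This call was lost in 6 of 10 fits that left out a library and with the replicate number as a block. In small intestine myenteric plexus, Lcn2 was at 0 in 3 of 6 libraries, and the other 3 had 3.68, 6.81 and 64.9. The colon minus small intestine difference in myenteric plexus, 3.47 ± 1.04, did not pass (adjusted p = 0.0682). It passed without the small intestine library of 64.9 (5.96, adjusted p = 0.00181). Small intestine submucosal libraries had 2.24 to 9.65 CPM of Lcn2, with every library below 10.

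Saa1 was highest in colon submucosal plexus, at 108, 176, 21.7, 42.7 and 3.17 CPM. In small intestine submucosal plexus it was at no more than 0.791, and the groups did not overlap. The colon minus small intestine difference was 7.38 ± 1.39 (adjusted p = 0.00286), and Saa1 was 1 of 5 tested genes that passed, where 5.18% of all genes did. In colon myenteric plexus it had 0.652, 1.21, 0, 0 and 6.13 CPM. The submucosal minus myenteric difference was 5.45 ± 1.33 (adjusted p = 0.00635), though the groups overlap through the libraries of 3.17 and 6.13. Epithelial marker sums were 2083 to 7663 CPM in colon submucosal and 13.0 to 2602 in colon myenteric libraries, and the library with 6.13 of Saa1 had the sum of 2602. In small intestine submucosal plexus, where Saa1 was near the floor, that sum was 1586 to 8248. The part of epithelial RNA in the Saa1 level was not tested.

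Saa3 in colon submucosal plexus had 9.25, 0, 16.1, 12.3 and 0 CPM against 0.87 in 1 myenteric library and 0 in the other 4 (difference 5.37 ± 2.24, adjusted p = 0.0898). Saa2 reached at most 10.1 CPM in colon submucosal plexus and had no count in either plexus of the small intestine. Hp stayed at or below 9.26 CPM in all 22 untreated libraries. Lrg1 ran from 35.0 to 124 CPM in colon myenteric, 12.7 to 83.8 in colon submucosal, 0 to 108 in small intestine myenteric and 0 to 26.9 in small intestine submucosal libraries. In colon, 2 of 5 tested genes (Lcn2 and Saa1) passed between plexuses, where 21.8% of all genes did, 3 had an unadjusted p under 0.05 and DESeq2 called 3. In small intestine 0 of 5 passed by edgeR or DESeq2, with 0 at an unadjusted p under 0.05, where 43.5% of all genes passed. Between regions of the myenteric plexus, 0 of 5 passed by edgeR, 1 had an unadjusted p under 0.05 and DESeq2 called 1 (Lcn2), where 3.19% of all genes passed.

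**Figure D5:**
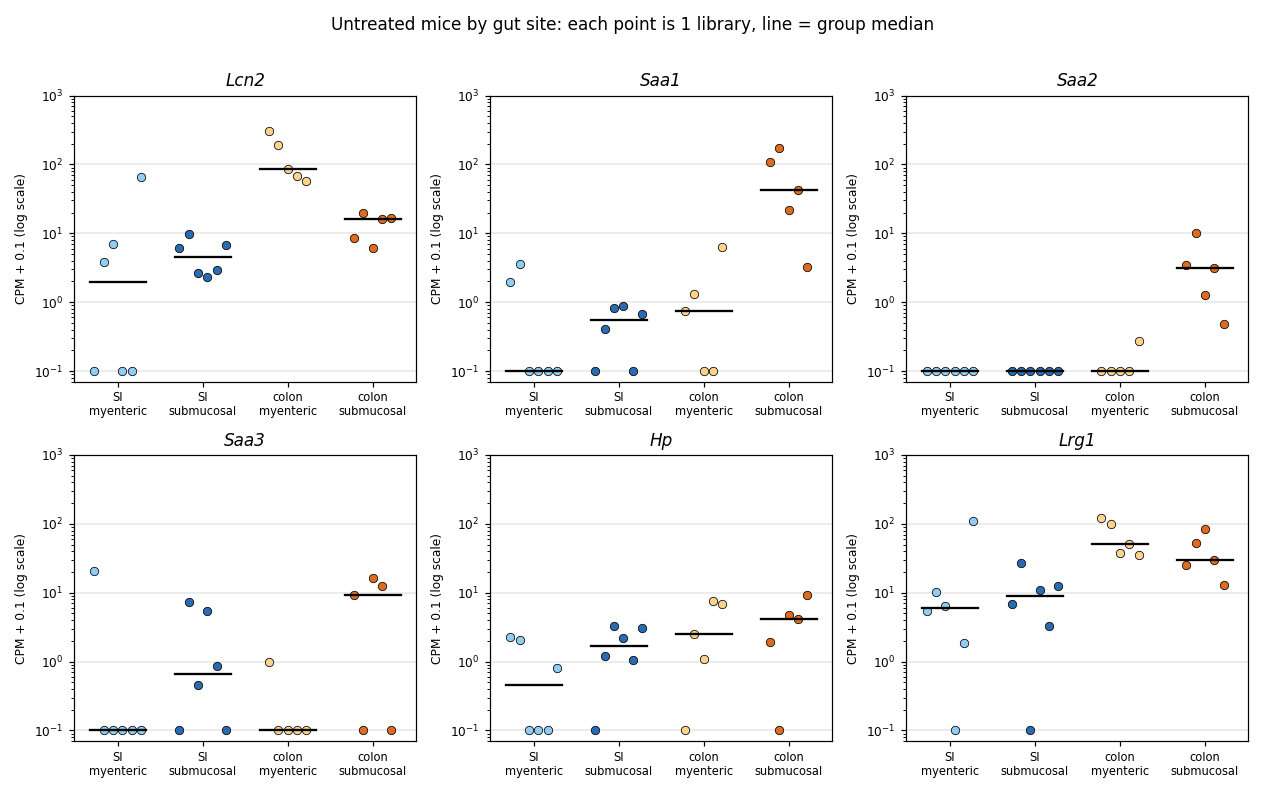
Points show the level of each of the 6 genes in each untreated library, in CPM, by region and plexus. Lcn2 is highest in colon myenteric plexus (58.3 to 305) and Saa1 in colon submucosal plexus (3.17 to 176).

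The genes whose 24 h pattern was most like each of the 6 were named by correlation over the 8 group means of log2 CPM, among 9313 genes above a minimum mean level. This is a description over 8 points that share libraries and treatment. For Lcn2 they were Cp (r = 0.990), H2-T22 (0.989) and H2-T23 (0.989). For Saa3 they were Fth1, the ferritin heavy chain (0.994), Cxcl16 (0.988) and Slc39a14, a zinc and iron transporter (0.987). For Hp they were Fkbp5 (0.989), Zfas1 (0.988) and again Slc39a14 (0.987). Saa1 was most like Crcp (0.995), Ccl5 (0.993) and Jaml (0.991), and Saa2 like Gtf2a2 (0.995), Tifa (0.990) and Fcgr4 (0.988). For Lrg1 the 3 nearest were the ribosomal protein genes Rpl37a (0.996), Rpl37 (0.995) and Rpl39 (0.993).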

How the data were processed

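RNA had been taken from myenteric or submucosal plexus of reporter mice with an RNeasy Plus Micro kit and made into Smart-seq2 libraries, per the labels' protocols. Reads were trimmed with Trim Galore 0.4.4 and aligned with STAR 2.5.3 to GRCm38, and DESeq2 is named, per the submitters' processing notes. The counting tool, annotation and strand setting are not given in the sources used here. The authors deposited raw read counts per gene symbol in 2 tables, which were used as deposited. The 6 genes and the lists of pathway and marker genes were chosen with earlier results of these data known, some by an earlier session on the same files. All 6 genes were named in each comparison, and of each list at most 4 called genes with the largest log2 difference, plus the 3 genes most like each of the 6 at 24 h.

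Each experiment was fitted as 1 model over its groups with edgeR 4.0.16 in R 4.3.3 (filterByExpr, TMM, quasi-likelihood test, 2-sided, Benjamini-Hochberg adjustment, threshold 0.05), over 14090 genes (untreated), 13107 (2 h) and 14903 (24 h). Saa2 failed the filter in the first and second of these. CPM used TMM library sizes, and standard errors were the log2 difference over the square root of F. DESeq2 1.42.0, other scalings and filters, covariates for sex and mouse number, blocks and left-out libraries were tried as alternatives. The fit was tested on simulated counts. Of 143 replicate pairs, none held identical counts. Colon and small intestine libraries of the same mouse deviated together at 24 h (mean correlation of deviations 0.121 over 15 mice, over 0.1 in 10; -0.002 between other libraries), and they come from the same animal. Promoters came from RefSeq GRCm38.p6 and gene models from GENCODE M21. Motif letters were searched on both strands except TATAAA. No sample was left without a group. The reporter's driver is not reported here.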

Additional observations from a re-analysis of the deposited data

Results flagged for a closer look

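In 85 groups of 4 to 6 libraries, 1 per gene and group, the highest or lowest library was set against its group. In 25 of them the highest library stood further from its neighbour than Dixon's limit allows. Chance gives about 1 in 20 for normally distributed values. These are CPM, many groups hold libraries at 0, and all 25 are the highest library, so the number is not read against that rate. Of these 25, 8 belong to mouse 14, a wild-type PBS animal. Its colon had 1172.3 CPM of Lcn2, 20.84 of Saa1, 32.71 of Saa2, 1437.5 of Saa3 and 248.3 of Hp. Its small intestine had 31.26 of Saa1, 0.9824 of Saa2 and 77.07 of Saa3. The neutrophil marker sum of that colon library was 153 CPM, the highest of the PBS libraries, and its part in these values was not tested.

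Among the other PBS libraries at 24 h, the colon of mouse 20 (knockout) had 405.8 CPM of Saa1 and 15.44 of Saa2, beside an epithelial marker sum of 8594. The colon of mouse 7 (knockout) had 132.8 of Saa3, and the small intestine of mouse 23 (wild type) had 60.32 of Hp. After LPS, the small intestine of mouse 10 (knockout) had 157.4 CPM of Saa2, that of mouse 13 (wild type) 1823.8 of Hp, and that of mouse 17 (knockout) 1157.9 of Hp and 3810.9 of Lrg1.

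At 2 h, LPS small intestine libraries held 17.69 CPM of Saa1 (replicate 2) and 8.74 of Hp (replicate 4), and PBS libraries held 3.732 of Saa3 in the colon (replicate 1) and 1.405 in the small intestine (replicate 3). In untreated myenteric plexus, replicate 6 of the small intestine had 64.92 CPM of Lcn2 and 108.1 of Lrg1, replicate 1 had 20.36 of Saa3, and colon libraries had 6.128 of Saa1 (replicate 5) and 0.8699 of Saa3 (replicate 1).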

How the results depend on the processing

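None of 708 values of the 40 log2 differences followed under alternatives changed sign, and 216 of 256 values of the 15 called differences stayed called. Most of these values come from fits that left out 1 library and share the rest with the main fit, so kept signs were likely beforehand. Of 176 counts of called genes under alternatives that kept all libraries or left out whole mice or mouse numbers, 156 were within 1.5 times the reported count. That number includes counts of 0 that stayed at 0. Most of the 23 comparisons reported 0, so it says little about how stable the calls are. DESeq2 called 1 in untreated myenteric plexus (colon against small intestine; 0 reported), 2 in untreated submucosal plexus (1 reported; also 2 with no filter on low counts), 4 in wild-type colon after LPS (1 reported), 6 in knockout small intestine after LPS (2 reported), 1 between genotypes after PBS and 1 for the genotype interaction in the small intestine (0 reported), 2 between regions after PBS in wild type (1 reported) and 2 in knockout (0 reported), and 1 for each region by LPS interaction at 24 h (Lcn2 in wild type, Saa2 in knockout; 0 reported). At 24 h, the Saa2 calls by DESeq2 that involve knockout small intestine all use its PBS group, where no library had a Saa2 count. With only the groups compared, 0 were called in small intestine at 2 h (1 reported) and 2 between regions after wild-type PBS. In that setting 0 were called in knockout colon (3 reported), and Lcn2 in knockout small intestine also lost its call. Wild-type colon after LPS had 2 calls with the mouse number division as a covariate, 2 with only mice numbered 11 and above, and 3 without mouse 14, an alternative chosen after seeing the data. Without mouse 14, 0 were called between regions after wild-type PBS, and with mice numbered 11 and above 1 was called in knockout small intestine.

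Leaving out 1 library at a time gave 0 to 2 calls between regions of untreated myenteric plexus, 1 to 2 between colon plexuses, 0 to 1 between small intestine plexuses, 0 to 1 in small intestine at 2 h, 3 to 5 in wild-type small intestine, 0 to 4 in wild-type colon, 1 to 5 in knockout small intestine and 2 to 3 in knockout colon at 24 h, and 0 to 1 between regions after wild-type PBS. The cause of these changes was not tested. Same-numbered libraries had a mean correlation of deviations of 0.093 in the untreated experiment (over 0.1 in 10 of 30 pairs) and 0.06 at 2 h (5 of 24). Between other libraries the means were -0.017 and -0.019. Known same-mouse pairs at 24 h were over 0.1 in only 10 of 15, so these values cannot decide whether same-numbered libraries share an animal. The numbers were left out of the main fit, and any such pairing is ignored there. A replicate block left 1 call (Saa1) between colon plexuses where 2 were reported, and with the mouse block at 24 h the call of Lcn2 after wild-type PBS stayed. Mitochondrial genes took a median of 15.4% of counts in the 12 libraries of mice numbered 10 and below and 4.57% in the other 25. Depth limits Saa1, Saa2 and Saa3 in untreated and 2 h libraries, where many had fewer than 3 counts.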
